A study of Mus musculus with 12 samples.

Results

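The neocortex of mice with a single working copy of Chd8 was compared with that of wild-type mice at postnatal day 5 (P5). All libraries of the P5 count table were taken, 3 labelled Chd8+/- and 3 labelled Chd8+/+, which are 6 of the 12 libraries of the series. The other 6 libraries were made from neocortex at embryonic day 12.5 (E12.5). They serve here for a comparison of the stages and for an alternative P5 fit with all 12 libraries. Both genotypes were on a C57BL/6J background. The Chd8+/- mice carried 1 allele of Chd8 from which exon 3 had been removed, made by crossing mice with loxP sites around exon 3 to a β-actinCre line, after which Cre was bred out. The animals studied came from crosses of Chd8+/- mice with C57BL/6J mice. Cre driven from the β-actin promoter is active throughout the body, so the allele was deleted in every tissue and not in neocortical cells alone. RNA was taken from 1 hemisphere at P5 and sequenced as paired ends over 2 lanes of an Illumina HiSeq 4000. The sources used here give 3 samples per genotype and do not say whether a sample was a single animal, so p-values measure the spread between these samples.

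CHD8 is a chromatin remodeler of the CHD family, which use the energy of ATP to move nucleosomes, and it binds mainly at the promoters of active genes. It is also known to bind β-catenin and p53 and to restrain the transcription of their target genes. In humans, heterozygous loss of CHD8 is among the most strongly supported genetic causes of autism and often comes with a large head. In the first postnatal week, mouse cortical neurons have taken up their layers, axons grow and find their targets, synapses form, and glia are generated.

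The sequence around the deleted exon shows what the mutant allele can encode. In the transcript Chd8-201, on the minus strand of chromosome 14 of GRCm38, exon 3 is 386 bases long and lies at chr14:52232545-52232930, within the coding sequence. Its length is not a multiple of 3. Joining exon 2 directly to exon 4 therefore shifts the reading frame, and the first stop codon follows 12 codons past the junction. The open frame that results holds 419 codons, which is 16.2% of the 2582 codons of the intact frame. The 2 junctions are given 5′ to 3′ on the coding strand, from GENCODE transcripts of GRCm38. They begin with the same 24 bases of exon 2. In the intact allele the capitals mark exon 3, and in the deleted allele they mark the stop codon read in the shifted frame.
Intact exon 2 to exon 3: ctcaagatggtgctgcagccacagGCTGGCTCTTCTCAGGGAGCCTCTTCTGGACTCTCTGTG
Deleted exon 2 to exon 4: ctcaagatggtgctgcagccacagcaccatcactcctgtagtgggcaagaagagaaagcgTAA
The deposited count of Chd8 covers all 37 exons of this transcript, so transcripts of the deleted allele are counted as well, except over exon 3.

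Between 45149693 and 54695236 read pairs per library were assigned to genes in Chd8+/+ and between 41803596 and 47478444 in Chd8+/-. The chi-squared of their counts, divided by its degrees of freedom, was 1.17 to 1.47 between the 2 runs of 1 library and 6.58 to 45.4 between libraries of 1 genotype. Chd8+/- replicate 3 stood apart in structural RNAs. Its ribosomal RNA gene CT010467.1 was at 15300 CPM (counts scaled to library size), where the other 5 libraries held 1080 to 2230, and the small nuclear RNA Rn7sk was at 53.3 CPM, where they held 1.82 to 2.81. Replicate 1 of each genotype had high Xist and Y-linked counts near 0, at 1010 CPM of Xist in Chd8+/+ and 831 CPM in Chd8+/-, while the other 4 libraries had at most 0.256 CPM of Xist. These markers therefore split 1 library from 2 in each genotype.

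Chd8 transcript was reduced in every Chd8+/- library. Normalized counts of Chd8 (ENSMUSG00000053754, chr14:52198151-52257723, overlapping 2 other annotated genes) were 148, 148 and 143 CPM in Chd8+/+ replicates 1 to 3 and 95.2, 97.7 and 94.1 CPM in Chd8+/- replicates 1 to 3. The 3 mutant values lay close together and far below the lowest wild-type value. Chd8 fell by 34.5%, from 146 ± 2.70 CPM (SD, n = 3) to 95.7 ± 1.82 CPM (SD, n = 3). The log2 fold change, always given as Chd8+/- over Chd8+/+, was -0.61, with a standard error (SE) of 0.0350 (adjusted p of 7.09e-05 in the quasi-likelihood test of edgeR and of 1.17e-40 in DESeq2). In the values listed below for single genes, the order is replicates 1 to 3 of Chd8+/+ and then replicates 1 to 3 of Chd8+/-, in CPM after TMM normalization.

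Apart from Chd8, the differences at P5 were small and spread over many genes. Of 18666 genes tested, edgeR called 1 at an adjusted p under 0.05, which was Chd8 itself (0.00536% of the genes tested). At an adjusted p under 0.1 there were 126 genes (0.675%), 90 of them lower (0.482%) and 36 higher (0.193%) in Chd8+/-. An unadjusted p under 0.05 was reached by 3327 genes (17.8%), of which 1829 were lower (9.8%) and 1498 higher (8.03%). Lower genes were thus 55.0% of them, a share that was 44.6% with offsets for gene length and 66.4% when all 12 libraries of both stages shared the fit. DESeq2, the tool of the study, called 651 of the 12467 genes left by its own filter (5.22%), 442 lower (3.55%) and 209 higher (1.68%). With 1 library left out, the edgeR count was 413 when Chd8+/- replicate 2 was out, 3 for replicate 1 of that genotype and 4 for its replicate 3. The DESeq2 count was then 48 and 122 when Chd8+/+ replicates 1 and 2 were out, and 140 and 314 for Chd8+/- replicates 1 and 3. Of the 86 genes other than Chd8 that are named here and called by DESeq2, 61 lost that call with at least 1 library left out. They were 59, 34 and 11 without Chd8+/+ replicates 1 to 3 and 30, 3 and 23 without Chd8+/- replicates 1 to 3. The shares of all genes tested are the ones against which the counts for gene groups below are to be read.

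Sizes were modest under either tool. Over all genes tested the median log2 fold change was 0.002 and the median size, taken without sign, was 0.0921. Among the genes called by DESeq2 the median size was 0.214, with 24 genes over 0.5 and 0 over 1. At 4322 genes (23.2%) the libraries of the genotypes were fully separate, lower in Chd8+/- at 2274 (12.2%) and higher at 2048 (11%).

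**Figure D1:**
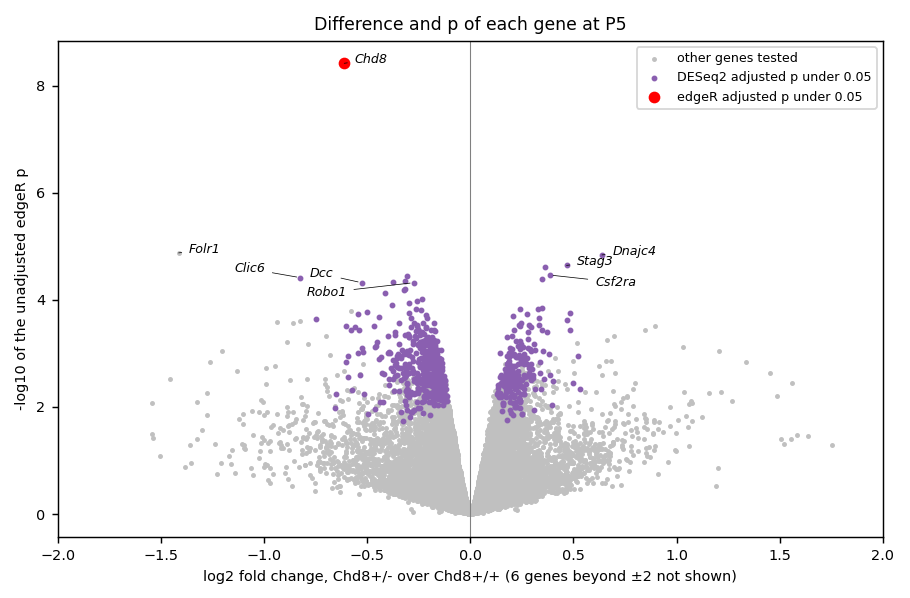
Each point is 1 of the genes tested at P5, with the log2 fold change of Chd8+/- over Chd8+/+ on the x axis and -log10 of the unadjusted edgeR p on the y axis. Chd8, in red, stands alone at the top, and most of the 651 genes called by DESeq2, in violet, lie within 0.5 of 0 on the x axis.

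Long genes tended to be lower in Chd8+/- and short genes higher. When the genes were ordered by exon length and divided into 10 classes, the median log2 fold change went from 0.059 in the shortest class (51 to 1111 bases) to -0.057 in the longest (8400 to 116800 bases). In the longest class 73.7% of genes were lower, and 503 had an unadjusted p under 0.05 as lower genes against 45 as higher genes. In the shortest class 39.9% were lower, with 61 such genes lower and 182 higher. Genes called by DESeq2 differed in the same way, with a median length of 7522 bases for the lower and 2265 bases for the higher ones.

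The trend was uneven among the libraries. In Chd8+/- replicate 1 the shortest class was at 0.051 and the longest at -0.066 on the log2 scale, relative to the mean of the 6 libraries. Replicate 2 of the same genotype was at -0.014 and -0.008, and replicate 3 at 0.026 and -0.013. The Chd8+/+ libraries ran from -0.027 to -0.011 in the shortest class and from 0.024 to 0.034 in the longest. When offsets removed each library's trend with gene length, the DESeq2 count was 261 genes (1.91%), 145 of them lower (1.06%), and every class of exon length had a median between 0.011 and 0.024. With these offsets the median over all genes tested was 0.016. In 10 classes of genomic span, introns included, the medians with the offsets still ran from 0.045 in class 3 to -0.017 in class 10, the longest. A cause of the trend with gene length was not tested. List medians with these offsets are given below for part of the lists.

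**Figure D2:**
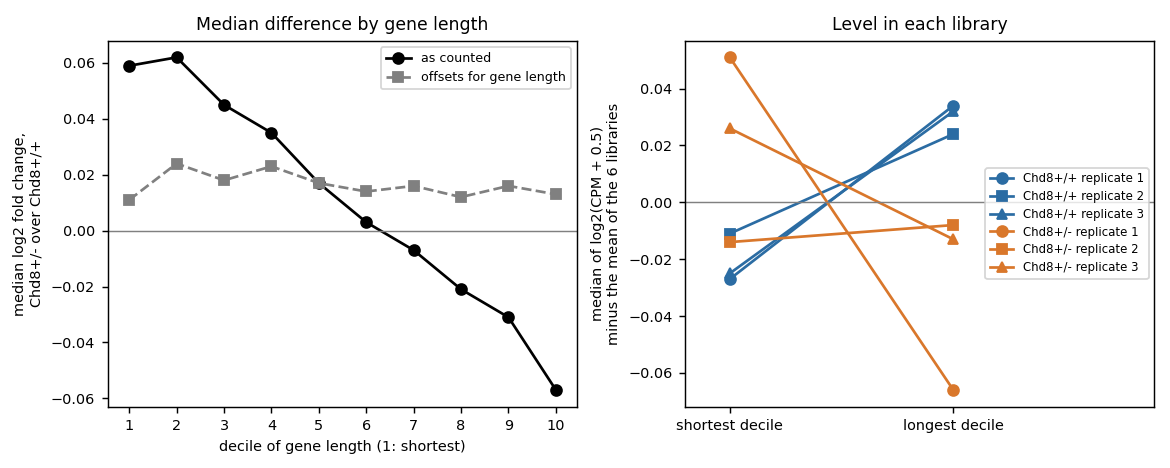
The left panel plots the median log2 fold change in 10 classes of gene length, from shortest to longest, as counted and with offsets for gene length. The right panel plots the median level of the shortest and longest class in each library on the log2 scale, relative to the mean of the 6 libraries. As counted, the median runs from 0.059 to -0.057, and Chd8+/- replicate 1 has the steepest line.

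The tissue carried the markers of neocortex in both genotypes, together with markers of striatum, hippocampus, thalamus and choroid plexus. Tbr1, a transcription factor of deep-layer and early-born neurons, was at 113, 122, 117 and 124, 114, 123 CPM. The genotypes overlapped at this gene. Across 12 markers of cortical excitatory neurons, 4 were lower, where 49.6% of all genes tested were lower whatever their p, and the median log2 fold change was 0.028, and across 12 upper-layer markers the median was 0.039. Without Chd8+/+ replicate 1 these medians were 0.008 and -0.001, the first was 0.054 without Chd8+/+ replicate 2 and the second 0.082 without Chd8+/+ replicate 3. With offsets for gene length the first was 0.068 and the second 0.089, where that of all genes was 0.016.

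Markers of striatal medium spiny neurons were lower in Chd8+/- throughout the list. All 17 genes tested had a negative log2 fold change, with a median of -0.32 where that of all genes was 0.002, and 13 had an unadjusted p under 0.05. DESeq2 called 9 of the 15 left by its own filter, and the genotypes did not overlap at 14. Ebf1, a transcription factor of the direct-pathway neurons, was at 9.26, 9.55, 9.31 and 4.29, 6.83, 5.61 CPM. Chd8+/- replicate 1 was the lowest of the 3, and each was below every wild-type library. Its log2 fold change was -0.75 (SE 0.137, adjusted p of 0.0958 in edgeR and 8.9e-05 in DESeq2). Drd1, the dopamine receptor of the same neurons, was at 26.7, 27.5, 25.5 and 18.3, 22.6, 20.8 CPM (log2 fold change -0.37, edgeR adjusted p = 0.099). Penk, the enkephalin precursor of the indirect pathway, was at 44.5, 50, 46.2 and 30.1, 38.7, 38.2 CPM (log2 fold change -0.39, edgeR adjusted p = 0.102). None of the markers was at 0 in either genotype, and their summed level was 471 to 505 CPM in Chd8+/+ and 345 to 428 CPM in Chd8+/-. When single libraries were left out, the list's median ranged from -0.38 to -0.21, closest to 0 without Chd8+/- replicate 1. In bulk tissue, fewer cells of a type and less RNA per cell cannot be told apart.

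Choroid plexus markers had the median farthest from 0 of the lists described. Of 20 genes tested, 19 were lower in Chd8+/-, and the median log2 fold change was -0.57. An unadjusted p under 0.05 was reached by 13, all lower, DESeq2 called 5 of the 9 left by its own filter, and the genotypes did not overlap at 14. Ttr, the thyroid hormone carrier secreted by this epithelium, was at 406, 528, 432 and 328, 358, 303 CPM (log2 fold change -0.46). Otx2, a transcription factor that maintains the choroid plexus, was at 2.36, 2.43, 2.28 and 1.02, 1.53, 1.32 CPM (log2 fold change -0.86, standard error 0.161, edgeR adjusted p = 0.0958). Every mutant library was below every wild-type library at both genes. The summed level was 663 to 791 CPM in Chd8+/+ and 534 to 576 CPM in Chd8+/-, and the list's median was between -0.61 and -0.41 with a library left out.

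Hippocampal and thalamic markers had medians below 0, with few genes called. Of 13 hippocampal markers, 10 had a negative log2 fold change, 6 of them and 1 higher gene at an unadjusted p under 0.05 and 1 called by DESeq2, with a median of -0.19 and a summed level of 299 to 305 CPM in Chd8+/+ and 254 to 285 CPM in Chd8+/-, and the median was -0.11 without Chd8+/- replicate 1. Prox1, the transcription factor of dentate granule cells and of some interneurons, was at 34.2, 33.6, 32.2 and 28.1, 29.6, 23.7 CPM (log2 fold change -0.30). Among 12 thalamic markers the median was -0.22, with 3 lower at an unadjusted p under 0.05 and 0 of 10 called by DESeq2. The genotypes overlapped at all 12, and the summed level was 233 to 301 CPM in Chd8+/+ and 227 to 252 CPM in Chd8+/-. The median was -0.10 without Chd8+/+ replicate 1 and -0.33 without Chd8+/+ replicate 3. Chd8+/+ replicate 1 held 20.2 CPM of Tcf7l2, a transcription factor of thalamic neurons, where the others held 3.96 to 7.03.

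Most endothelial markers were lower as well, while most meningeal markers were not. Of 20 endothelial markers, 17 were lower, with a median of -0.18, 12 at an unadjusted p under 0.05 and 5 called by DESeq2. Their summed level was 703 to 730 CPM in Chd8+/+ and 627 to 673 CPM in Chd8+/-. In their mean level on the log2 scale the genotypes overlapped, with Chd8+/- replicate 2 at 0.035 and Chd8+/+ replicate 3 at 0.029. The median was -0.15 without Chd8+/- replicate 1 and -0.24 without Chd8+/- replicate 2. Flt1, a receptor for vascular endothelial growth factor, was at 34.7, 32.9, 29.9 and 21.5, 28.5, 22.2 CPM (log2 fold change -0.43, adjusted p of 0.104 in edgeR and 0.000983 in DESeq2). Abcc9, the sulfonylurea receptor subunit of pericytes, was at 19.7, 20.3, 18.8 and 14, 15.9, 15.2 CPM (log2 fold change -0.38, edgeR adjusted p = 0.0958), although the median of 12 markers of pericytes and smooth muscle was -0.089 (-0.038 without Chd8+/- replicate 3). Of these 12 markers 10 were lower, and 2 lower and 1 higher had an unadjusted p under 0.05 (25% of the list, beside 17.8% of all genes). Of 18 markers of meningeal fibroblasts, 16 were higher, with a median of 0.15 that was 0.062 without Chd8+/- replicate 3 and 0.27 without replicate 2, but the mutant libraries spread from 998 to 1370 CPM in sum around the wild-type 1030 to 1130 CPM.

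Markers of glia differed in few genes. The medians were -0.015 for 18 astrocyte genes, -0.049 for 17 genes of the oligodendrocyte lineage and -0.081 for 20 microglial genes, with 1, 0 and 0 higher and 0, 1 and 2 lower at an unadjusted p under 0.05. These medians turned to 0.034 and 0.057 for the first and second list without Chd8+/- replicate 1 and to 0.008 for the third without Chd8+/+ replicate 2. With offsets for gene length they were 0.009, -0.014 and -0.077 in the same order. Of 7 erythrocyte genes 6 were lower, 2 of them and 1 higher gene at an unadjusted p under 0.05, with a median of -0.094 that was -0.17 without Chd8+/+ replicate 3. The part that the differences in striatal, choroid plexus, hippocampal and endothelial markers have in the results below was not tested.

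**Figure D3:**
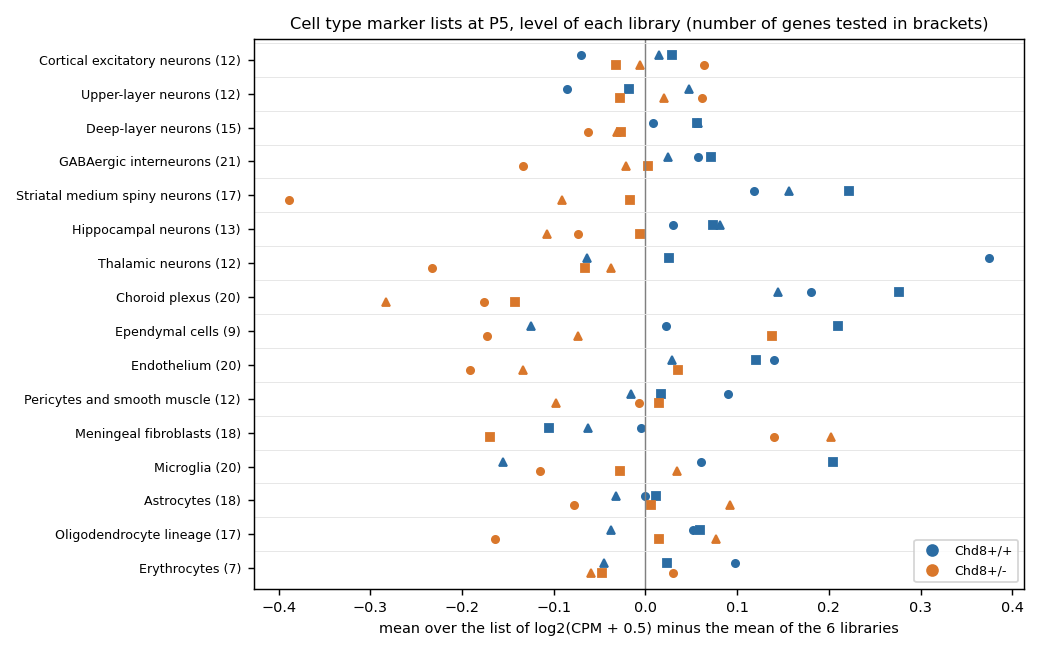
For each list of cell type markers, the mean of log2(CPM + 0.5) over its genes is plotted for each library on the x axis, relative to the mean of the 6 libraries. Circles, squares and triangles are replicates 1, 2 and 3 of each genotype. The genotypes separate for striatal, choroid plexus, hippocampal, deep-layer and GABAergic interneuron markers, at which Chd8+/- libraries lie lower. They overlap for the other lists, among them cortical excitatory neurons, upper-layer neurons and astrocytes.

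Among the lower genes with the smallest p after Chd8, Folr1, Igf2r, Clic6 and Sec24d came first. Folr1 (ENSMUSG00000001827, chr7:101858331-101870788), a folate receptor of the choroid plexus, was at 4.22, 5.57, 3.62 and 2.00, 1.65, 1.39 CPM. Every wild-type library was well above every mutant one. Its log2 fold change was -1.41 (SE 0.186, edgeR adjusted p = 0.0686), and DESeq2 gave no adjusted p at this count. Clic6, an intracellular chloride channel protein that is abundant in the same epithelium, was at 7.78, 10, 9.38 and 4.82, 5.90, 4.63 CPM (log2 fold change -0.82, adjusted p of 0.0686 in edgeR and 7.73e-06 in DESeq2). Cldn2, a claudin of leaky epithelia, was at 2.61, 3.10, 3.23 and 1.84, 1.67, 1.17 CPM (log2 fold change -0.94).

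Of the lower genes with roles in neurons, Igf2r, the cation-independent mannose 6-phosphate receptor that clears the growth factor IGF2, was at 60.2, 64.3, 63.4 and 48.3, 52.2, 51.2 CPM. All mutant libraries were below all wild-type libraries, by a log2 fold change of -0.31 (SE 0.0454, adjusted p of 0.0686 in edgeR and 3.82e-05 in DESeq2). Cntnap4, a neurexin-like protein of inhibitory synapses, was at 39.4, 40.6, 35.7 and 28.9, 30.9, 29.5 CPM, with a log2 fold change of -0.37. Sec24d, a cargo adaptor of the coat that carries proteins out of the endoplasmic reticulum, was at 32.5, 32.2, 30.4 and 25.6, 25.5, 25.2 CPM (-0.32 on the log2 scale). The genotypes overlapped at neither gene.

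Zfp608, a zinc finger protein, was at 48.6, 47.6, 46.2 and 36.1, 40.4, 37.7 CPM, and Rxrg, a retinoid X receptor that is enriched in striatum, at 31.4, 30.8, 32.6 and 24.3, 25.1, 26.4 CPM. The log2 fold change was -0.32 for each. The adjusted p from edgeR of these lower genes, with Robo1, Dcc and Pcdhga11 but without Cldn2 (0.0958), lay between 0.0686 and 0.085.

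Among the higher genes, Dnajc4 and Stag3 had the smallest p. Dnajc4 (ENSMUSG00000024963, chr19:6987911-6992503), a heat shock protein co-chaperone, was at 7.43, 7.28, 6.97 and 12.5, 10.8, 10.5 CPM. The highest mutant value was in replicate 1, and the lowest stood well above the wild-type libraries, with a log2 fold change of 0.64 (SE 0.0847, adjusted p of 0.0686 in edgeR and 1.46e-05 in DESeq2). Stag3, a cohesin subunit of meiotic chromosomes, was at 15.8, 14.3, 15.3 and 21.2, 19.6, 22 CPM (log2 fold change 0.47). Csf2ra, a subunit of the receptor for the growth factor GM-CSF, was at 36.2, 36.5, 40.2 and 51.6, 49.5, 46.4 CPM (log2 fold change 0.38). The genotypes were separate at each of these genes.

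Chmp2a, a subunit of the ESCRT-III membrane scission machinery, was at 52.9, 55.2, 54.9 and 74.7, 65.2, 69.8 CPM (log2 fold change 0.36). Anapc11, the RING subunit of the anaphase-promoting complex, was at 45.4, 46.9, 46.0 and 64.5, 54.1, 57.2 CPM (log2 fold change 0.35). Ppm1m, a protein phosphatase, was at 20.8, 21.4, 20.3 and 27.6, 25.9, 26.0 CPM (log2 fold change 0.35). In these 3 genes Chd8+/- replicate 1 was the highest of the 6 libraries. The other log2 fold changes were those of Cpne9, a calcium-binding copine (0.48), Nudt2, a hydrolase of dinucleotide polyphosphates (0.33), Smug1, a uracil-DNA glycosylase (0.27), and Pih1d1, a component of the R2TP co-chaperone (0.24). Across all 10 higher genes the adjusted p from edgeR was between 0.0686 and 0.0958.

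The largest differences among genes at an unadjusted p under 0.01 were mostly at genes with few reads or with 1 deviating library. Musk, the receptor kinase of the neuromuscular junction, was at 1.61, 1.55, 1.15 and 0.286, 0.860, 0.640 CPM (log2 fold change -1.26). Spata18, a regulator of mitochondrial quality, was at 1.39, 1.71, 1.13 and 0.548, 0.953, 0.619 CPM (log2 fold change -0.99). Fam107a, an actin-associated protein, had a log2 fold change of -0.99, which was -0.51 without Chd8+/+ replicate 3, since that library held 36.3 CPM and the other wild-type libraries 16.4 and 16.9. Wdfy1, an endosomal adaptor, was at 22.4, 19.8, 24.5 and 22.9, 48.2, 45 CPM, so that Chd8+/- replicate 1 lay among the wild-type libraries (log2 fold change 0.80). The remaining higher ones were Cdnf, a neurotrophic factor (0.79), Efcab3 (0.70), and the noncoding 1700120C14Rik (0.89) and 2900009J06Rik (0.85), the latter annotated antisense to another gene, whose reads the counting could not separate by strand.

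**Figure D4:**
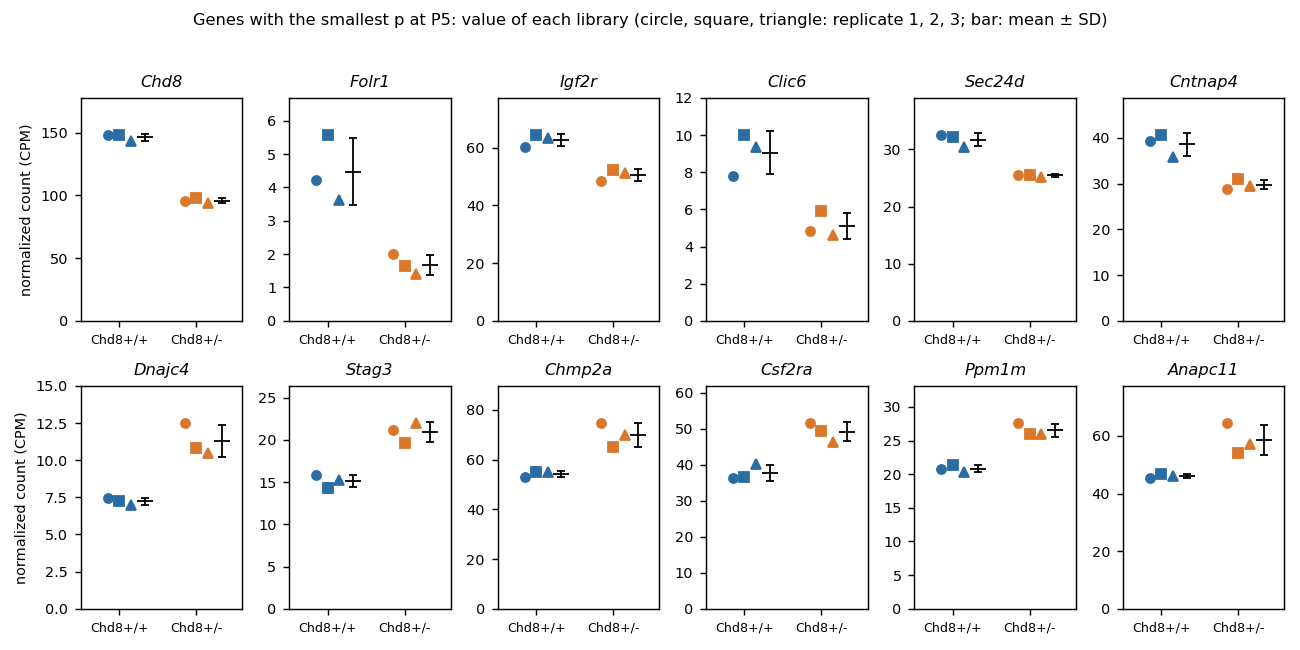
Normalized counts in CPM are plotted on the y axis for Chd8, the 5 next lower genes and the 6 higher genes with the smallest p, with 1 point per library and the mean ± SD of each genotype. The genotypes do not overlap in any panel, since the genes other than Chd8 were chosen for that, and the plot shows the spread within each.

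Adhesion molecules of the cadherin superfamily were lower in Chd8+/- in nearly every member tested. The clustered protocadherins are cell surface proteins, each neuron using a random subset of them as an identity code for self-recognition of its branches. Of 22 gamma protocadherins tested, 21 were lower, and the median log2 fold change was -0.31. An unadjusted p under 0.05 was reached by 17, DESeq2 called 9 of 20, and the genotypes did not overlap at 13. Pcdhga11 was at 27.9, 26.2, 25.4 and 19.4, 21.7, 18.7 CPM (log2 fold change -0.41, standard error 0.0659, adjusted p of 0.085 in edgeR and 0.000112 in DESeq2). Pcdhgb1 was at 12.4, 11.9, 11.7 and 7.96, 9.51, 7.23 CPM (log2 fold change -0.54), and Pcdhga9 at 10.3, 10.3, 8.20 and 5.86, 7.23, 6.23 CPM (log2 fold change -0.58). In all 3 genes Chd8+/- replicate 2 was the mutant library nearest to wild type.

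All 13 alpha protocadherins were lower, with a median of -0.26. An unadjusted p under 0.05 was reached by 3 (23.1% of the list, beside 17.8% of all genes). DESeq2 called 1 of the 9 left by its own filter, and the genotypes did not overlap at 2. Among the 3 was Pcdha5 at 14.6, 15.8, 14.7 and 12.9, 12.3, 13 CPM (log2 fold change -0.24). Of 21 beta protocadherins, 19 were lower, with a median of -0.12, and 8 had an unadjusted p under 0.05. Pcdhb11 was at 9.70, 8.92, 9.68 and 7.13, 6.51, 7.21 CPM (log2 fold change -0.44, adjusted p of 0.0958 in edgeR and 0.00647 in DESeq2). The beta median was -0.057 without Chd8+/+ replicate 1. Alpha and gamma genes share their last exons within a cluster, and Pcdhgb1 for instance overlaps 30 annotated genes, so these counts rest on reads that could be assigned to a single gene. With offsets for gene length the medians were -0.23, -0.11 and -0.28 for the alpha, beta and gamma clusters.

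The 12 non-clustered protocadherins were all lower, with a median of -0.13 and 7 at an unadjusted p under 0.05. With offsets for gene length 9 were lower and 3 higher, with a median of -0.1. Pcdh9, which marks sets of projection neurons, was at 124, 120, 110 and 94.7, 101, 104 CPM (log2 fold change -0.24, adjusted p of 0.099 in edgeR and 0.00137 in DESeq2). Pcdh10, a delta protocadherin of the striatum and cortex, was at 227, 231, 212 and 180, 205, 192 CPM (log2 fold change -0.21). Both genes were lower in all mutant libraries than in any wild-type library.

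Among classical and type II cadherins, which join like cells through calcium-dependent contacts, 17 of 19 were lower, with a median of -0.14 (-0.090 with offsets for gene length), 9 lower and 1 higher at an unadjusted p under 0.05, and 5 lower by DESeq2. Cdh2, the N-cadherin of neuroepithelia and synapses, was at 232, 240, 227 and 199, 210, 205 CPM (edgeR adjusted p = 0.0958). Cdh8, a type II cadherin of corticostriatal circuits, was at 114, 114, 104 and 81.7, 95.5, 99.5 CPM (log2 fold change -0.26). Cdh18, also of type II, was at 14, 12.9, 12.4 and 9.61, 11.5, 10.6 CPM (log2 fold change -0.32). None of these genes had overlapping genotypes. Of the giant cadherins, Fat1 was at 118, 117, 113 and 96.9, 105, 98.1 CPM (log2 fold change -0.21, edgeR adjusted p = 0.0958), but the median over 9 Fat, Dachsous and Celsr genes was -0.052. That median was -0.015 without Chd8+/+ replicate 3 and -0.084 without Chd8+/- replicate 2, and turned to 0.018 with offsets for gene length.

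Adhesion genes of the immunoglobulin and teneurin families followed. Of 12 contactins, L1 family members and NCAMs, 10 were lower, with a median of -0.12, and 6 were called by DESeq2. With offsets for gene length 7 were lower and 5 higher, with a median of -0.085. Chl1, an L1 family protein of growing axons, was at 857, 875, 822 and 717, 754, 767 CPM (log2 fold change -0.19, adjusted p of 0.099 in edgeR and 0.000783 in DESeq2). L1cam, the founding member, which promotes axon growth, was at 737, 719, 738 and 667, 673, 642 CPM (log2 fold change -0.15). The wild-type libraries were higher without overlap at both.

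Of 20 synaptic adhesion genes, 15 were lower, with a median of -0.11, 11 at an unadjusted p under 0.05 and 6 called by DESeq2. The 3 with the smallest p were teneurins, large transmembrane proteins that pair with latrophilins across the synapse. Tenm2 was at 217, 208, 205 and 165, 190, 158 CPM (log2 fold change -0.30). Tenm1 was at 95.8, 90.1, 81.8 and 68.7, 72.7, 76.6 CPM (log2 fold change -0.30), and Tenm3 at 196, 192, 176 and 154, 165, 160 CPM (log2 fold change -0.24). Their adjusted p from edgeR was between 0.0958 and 0.099 and the genotypes were separate at each. The synaptic adhesion median became -0.036 with offsets for gene length.

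Axon guidance receptors were mostly lower in Chd8+/-. Robo1, a receptor that repels axons from Slit proteins, was at 148, 155, 149 and 118, 129, 127 CPM (log2 fold change -0.27, adjusted p of 0.0686 in edgeR and 1.53e-05 in DESeq2). Dcc, the receptor through which netrin attracts axons, was at 18.5, 19.1, 16.4 and 11.4, 12.7, 13.4 CPM, and its log2 fold change was -0.53 with a standard error of 0.0800. Its ligand Ntn1, netrin-1, was at 34.5, 34.3, 33.2 and 23.1, 30.3, 29.7 CPM (log2 fold change -0.30, adjusted p of 0.140 in edgeR and 0.0202 in DESeq2). Chd8+/- replicate 1 was the lowest library at all 3 genes, and no mutant library reached a wild-type value. Without that library the log2 fold change of Ntn1 was -0.18, and its DESeq2 adjusted p was 0.201 then, 0.232 without Chd8+/+ replicate 1 and 0.113 without Chd8+/+ replicate 2.

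Of 10 Slit, Robo and Srgap genes 9 were lower, with a median of -0.13 and 6 at an unadjusted p under 0.05, among which Slit3 was at 23.0, 21.7, 21.1 and 16.8, 20.1, 18.3 CPM. The 12 netrins, Dcc and Unc5 receptors had no common direction, with 2 lower and 2 higher at an unadjusted p under 0.05 and a median of -0.022, which was 0.031 with offsets for gene length. Leaving out Chd8+/- replicate 1 gave -0.057, and leaving out Chd8+/+ replicate 3 gave -0.001. Draxin, a secreted netrin antagonist, was higher, at 64.0, 67.8, 67.6 and 77.1, 69.2, 71.1 CPM (log2 fold change 0.12).

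Eph receptors, which repel growth cones on contact, were lower in 10 of 14 genes, with a median of -0.094 (-0.051 with offsets for gene length), 5 at an unadjusted p under 0.05 and 2 called by DESeq2. Epha4 was at 212, 220, 220 and 183, 195, 198 CPM and Epha5 at 212, 212, 198 and 170, 185, 189 CPM, and neither overlapped between genotypes. Their ephrin ligands gave no such count, with 2 of 8 lower, 6 higher and 0 at an unadjusted p under 0.05 in either direction by edgeR. The difference between receptors and ligands was not tested.

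Plexins and neuropilins, the receptors of semaphorins, were lower in 10 of 11 genes, with a median of -0.090 and 5 at an unadjusted p under 0.05. Plxna2, a receptor of transmembrane semaphorins, was at 283, 289, 282 and 234, 256, 246 CPM (log2 fold change -0.22, adjusted p of 0.0958 in edgeR and 0.000317 in DESeq2). Nrp1, the coreceptor of secreted semaphorins and of vascular endothelial growth factor, was at 82.9, 85.0, 83.9 and 66.8, 76.5, 64.5 CPM (log2 fold change -0.28). Semaphorins themselves were lower and higher in 10 genes each, with 5 lower and 1 higher at an unadjusted p under 0.05 and a median of 0.006 that was -0.036 without Chd8+/+ replicate 1 and 0.031 without Chd8+/- replicate 3. Sema5a was at 61.2, 56.5, 56.5 and 43.6, 53.4, 48.8 CPM (log2 fold change -0.26) and Sema3c at 40.1, 43.7, 39.3 and 32, 37.7, 34.2 CPM (log2 fold change -0.25). With offsets for gene length the plexin and neuropilin median was -0.010 and the Slit, Robo and Srgap median -0.046. The semaphorin median was then 0.045, with 8 lower and 12 higher.

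Ion channels and receptors of neuronal excitability were mixed, with more lower than higher genes. Voltage-gated sodium channels, which carry the action potential, were lower in 9 of 11 genes, with a median of -0.15 that was -0.10 without Chd8+/- replicate 1. With offsets for gene length 7 were lower and 4 higher, with a median of -0.115. Scn3a, the channel of immature neurons, was at 133, 130, 128 and 109, 114, 119 CPM (log2 fold change -0.19, edgeR adjusted p = 0.099), and Scn9a at 27.8, 26.9, 31.6 and 22.4, 23.8, 26.0 CPM (log2 fold change -0.26).

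Among 16 voltage-gated calcium channel genes, 10 were lower, and the median of -0.040 turned to 0.022 with offsets for gene length and to 0.008 without Chd8+/+ replicate 3 (-0.084 without Chd8+/+ replicate 2), with 3 lower and 1 higher at an unadjusted p under 0.05. Cacna2d3, an auxiliary subunit, was at 100, 104, 103 and 71.7, 91.7, 81.1 CPM. Cacnb3, a cytoplasmic beta subunit, was higher, at 236, 238, 256 and 291, 263, 261 CPM (log2 fold change 0.16, adjusted p of 0.150 in edgeR and 0.0398 in DESeq2). Of 32 potassium channels, 18 were lower and 14 higher, with a median of -0.014 that turned to 0.018 without Chd8+/- replicate 1 and to 0.031 with offsets for gene length. Kcna1, a delayed rectifier of axons, was at 9.99, 9.15, 8.88 and 5.96, 7.76, 5.53 CPM (log2 fold change -0.54), and Kcnh3, of the ether-a-go-go family, was higher at 92.8, 95.5, 95.1 and 112, 106, 100 CPM (log2 fold change 0.17).

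Glutamate receptors were lower in most subunits. Grik3, a kainate receptor subunit, was at 182, 175, 176 and 143, 158, 151 CPM (log2 fold change -0.24, adjusted p of 0.0958 in edgeR and 0.000264 in DESeq2). Gria2, the AMPA receptor subunit that makes the channel impermeable to calcium, was at 516, 520, 523 and 407, 463, 459 CPM (log2 fold change -0.23). Over all 18 NMDA, AMPA and kainate receptor subunits the median was -0.077, with 7 lower and 1 higher at an unadjusted p under 0.05, and it was -0.012 with offsets for gene length and -0.037 without Chd8+/- replicate 1. Of 7 metabotropic receptors 6 were lower, with a median of -0.18 that was -0.11 without Chd8+/+ replicate 2 and -0.12 with offsets for gene length. Gabrb2, a subunit of the GABA-A receptor, was at 79.7, 84.1, 73.2 and 60.4, 63.2, 68.6 CPM (log2 fold change -0.30, adjusted p of 0.099 in edgeR and 0.000493 in DESeq2). The median over 12 GABA-A subunits was -0.075, with 2 lower and 0 higher at an unadjusted p under 0.05.

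Genes that move calcium across membranes were lower in 15 of 15 tested, with a median of -0.13 and 6 at an unadjusted p under 0.05. Atp2b3, a plasma membrane calcium pump, was at 51.8, 53.2, 49.9 and 41.1, 47.2, 43.8 CPM, and Atp2b1, a second such pump, at 531, 548, 507 and 413, 480, 470 CPM. Atp2a2, the pump of the endoplasmic reticulum, was at 624, 620, 581 and 514, 567, 550 CPM (log2 fold change -0.16). The median was -0.060 with offsets for gene length.

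Synaptic genes differed in both directions. Of 45 genes of synaptic vesicles and the active zone, 9 were lower and 8 higher at an unadjusted p under 0.05 (37.8% of the list, beside 17.8% of all genes). Their median was -0.025, which was -0.016 without Chd8+/- replicate 1 and turned to 0.022 with offsets for gene length, and DESeq2 called Syn3 and Synpr. Syn3, a synapsin, was at 33.8, 34.4, 32.1 and 28.5, 28.5, 30.2 CPM. Of 30 postsynaptic density genes, 6 were lower and 0 higher at an unadjusted p under 0.05, with a median of -0.013 (0.048 with the offsets and -0.002 without Chd8+/+ replicate 3), led by the scaffold Dlg2 (log2 fold change -0.16).

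**Figure D5:**
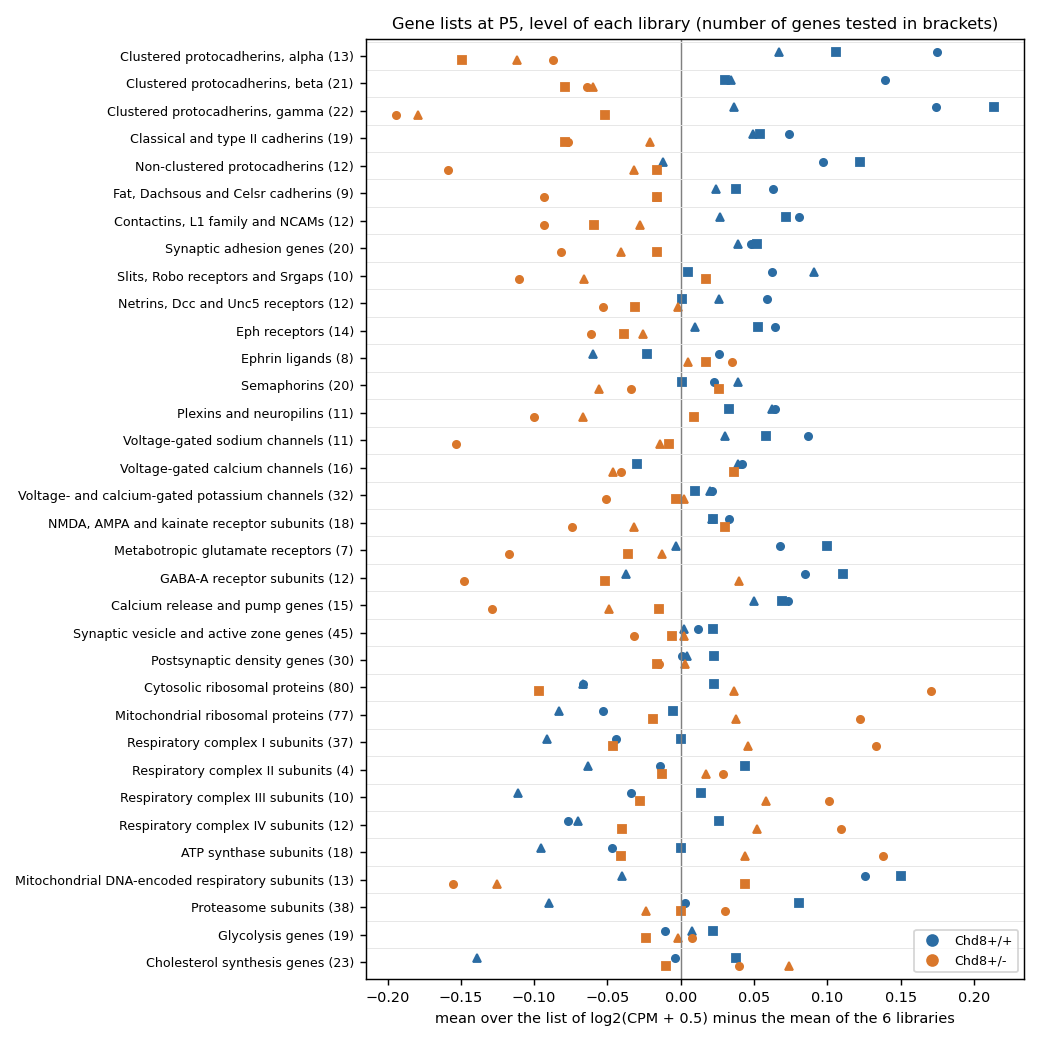
For each gene list, the mean of log2(CPM + 0.5) over its genes is plotted for each library on the x axis, relative to the mean of the 6 libraries, with circles, squares and triangles for replicates 1, 2 and 3. Chd8+/- libraries lie below all Chd8+/+ libraries for the gamma protocadherins and the cadherins. For cytosolic and mitochondrial ribosomal proteins and complex I, Chd8+/- replicates 1 and 3 lie highest, and replicate 2 lies among the Chd8+/+ libraries or below them.

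Most nuclear genes of ribosomal proteins and of the respiratory chain had small positive log2 fold changes, and DESeq2 called few of them. Of 80 cytosolic ribosomal protein genes, 73 were higher, with a median of 0.083 and 10 at an unadjusted p under 0.05, which is 12.5% of the list where the background was 17.8%. The genotypes overlapped at all 80 genes. Rps25 was at 135, 139, 133 and 169, 138, 160 CPM and Rpl36 at 67.3, 69.9, 65.0 and 92.3, 68.9, 79.1 CPM, in both of which Chd8+/- replicate 2 lay among the wild-type libraries. The median was 0.013 without Chd8+/- replicate 1, 0.14 without replicate 2 and 0.050 with offsets for gene length.

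Mitochondrial ribosomal proteins were higher in 66 of 77 genes, with a median of 0.11, 26 at an unadjusted p under 0.05 and 6 called by DESeq2. At 26 of the 77 all mutant libraries were above all wild-type ones. Mrpl48 was at 27.9, 28.7, 28.4 and 34.4, 32.4, 33.6 CPM (log2 fold change 0.24, adjusted p of 0.0958 in edgeR and 0.00834 in DESeq2), with all 3 mutant libraries above the wild type. Without Chd8+/- replicate 1 the median of the list was 0.065, and with offsets for gene length it was 0.094.

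Nuclear genes of the respiratory chain showed the same sign. Complex I subunits were higher in 31 of 37 genes, with a median of 0.11, 15 higher at an unadjusted p under 0.05 and 11 higher without overlap. Ndufb10 was at 51.4, 52, 51.3 and 64.1, 58.0, 60.1 CPM (log2 fold change 0.24, adjusted p of 0.0958 in edgeR and 0.00257 in DESeq2). Ndufs1, the largest subunit, was lower instead, at 102, 110, 93.3 and 83.4, 89.0, 87.5 CPM (log2 fold change -0.23). Of complex III, Uqcr10 was at 51.6, 54.1, 51.9 and 68.2, 57.1, 63.4 CPM (log2 fold change 0.26). The medians were 0.072 for 10 subunits of complex III, 0.086 for 12 of complex IV, 0.10 for 18 of ATP synthase and 0.024 for 4 of complex II. Without Chd8+/- replicate 1 those of complexes I and IV were 0.051 and 0.034, and without replicate 2 they were 0.16 and 0.11. The ATP synthase median was 0.064 without Chd8+/- replicate 1, and without Chd8+/+ replicate 3 that of complex III was 0.043 and that of complex II -0.004 (0.058 without Chd8+/+ replicate 2). With offsets for gene length the medians of complex IV and ATP synthase were 0.040 and 0.062.

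The 13 respiratory subunits that mitochondrial DNA encodes went in the other direction. All were lower, with a median of -0.13 and 4 at an unadjusted p under 0.05, and DESeq2 called none of the 11 left by its own filter. The one with the smallest p, mt-Nd5, was at 3480, 3590, 3130 and 2550, 3220, 2720 CPM (log2 fold change -0.27). Chd8+/- replicate 2 lay within the wild-type range there, and the genotypes were separate at 1 of the 13. The median was -0.20 without Chd8+/- replicate 2 and -0.077 without Chd8+/+ replicate 2.

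Other housekeeping pathways differed little. Proteasome subunits had a median of 0.036 over 38 genes and glycolysis genes 0.011 over 19, in which Slc2a1, the glucose transporter of brain endothelium, was lower at 37.9, 38.8, 46.2 and 31.5, 35.2, 28.8 CPM (log2 fold change -0.36, adjusted p of 0.106 in edgeR and 0.00308 in DESeq2). Without single libraries these 2 medians ranged from 0.006 to 0.070 and from 0.001 to 0.027. Of 23 genes of cholesterol synthesis, 19 were higher, with 4 at an unadjusted p under 0.05 (17.4% of the list, beside 17.8% of all genes) and a median of 0.069 that was 0.028 without Chd8+/+ replicate 3.

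Other chromatin regulators were lower in part. Of 9 CHD remodelers other than Chd8, 7 were lower, with a median of -0.12 and 5 at an unadjusted p under 0.05. Chd3, an ATPase of the NuRD complex, was at 899, 929, 916 and 824, 835, 831 CPM (log2 fold change -0.14, adjusted p of 0.106 in edgeR and 0.00491 in DESeq2). Chd7, the gene mutated in CHARGE syndrome and a binding partner of CHD8, was at 26.7, 26.8, 25 and 19.5, 24.6, 22.1 CPM (log2 fold change -0.25, and -0.16 without Chd8+/- replicate 1). Both were lower without overlap, and the median of all 9 remodelers was -0.034 with offsets for gene length.

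Kmt2e, a SET domain protein, was the leading gene among 16 writers and erasers of methylation at histone H3 lysine 4, at 162, 167, 168 and 136, 150, 139 CPM (log2 fold change -0.23, adjusted p of 0.0958 in edgeR and 0.000762 in DESeq2). The list's median was -0.057 (-0.002 with offsets for gene length and -0.025 without Chd8+/- replicate 3), with 5 lower and 2 higher at an unadjusted p under 0.05. Among cohesin, its loaders and Ctcf, Nipbl, the loader, was at 72.1, 73.9, 70.5 and 58.4, 65.1, 63.3 CPM and Smc3, a core ring subunit, at 75.3, 77.9, 77.8 and 65.1, 70.2, 68.6 CPM, with Stag3 higher as given above. The median of these 14 genes was -0.084, and it was -0.032 with offsets for gene length and -0.053 without Chd8+/- replicate 1. Subunits of the BAF complex had a median of -0.021 over 26 genes, which was 0.019 with the offsets and -0.011 without Chd8+/+ replicate 3, and were led by Arid1b at 125, 122, 120 and 104, 110, 114 CPM. DNA methylation genes and Polycomb repressive complex 2 had medians of -0.024 over 12 and -0.042 over 11 genes (0.027 and -0.006 with the offsets) with 3 lower and 1 higher, and 2 lower and 1 higher, at an unadjusted p under 0.05, and DESeq2 called 0 in either. The DNA methylation median was -0.003 without Chd8+/- replicate 1 and -0.044 without Chd8+/+ replicate 2, and that of Polycomb repressive complex 2 was -0.014 without Chd8+/- replicate 3.

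High-confidence autism risk genes of SFARI categories 1 and 2 were lower in 46 of 59 genes, 29 of them at an unadjusted p under 0.05 and 0 higher. That is 49.2% of the list beside a background of 17.8%. Their median length was 8580 bases, against 3466 over all genes tested, and the median log2 fold change was -0.089 as counted, -0.059 without Chd8+/- replicate 1 and -0.020 with offsets for gene length. Wdfy3, an autophagy adaptor, was at 212, 204, 200 and 178, 190, 182 CPM, and Scn2a, a sodium channel, had a log2 fold change of -0.20 without overlap. The genotypes were separate at 30 of the 59, 29 lower and 1 higher.

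Genes of cell division gave counts below the background. Mitosis genes had a negative log2 fold change in 20 of 26, with a median of -0.072 and 4 at an unadjusted p under 0.05 (15.4% of the list, beside 17.8% of all genes), led by the kinetochore motor Cenpe at 12.6, 11.9, 12.1 and 9.27, 10.6, 9.94 CPM (log2 fold change -0.29). Without Chd8+/- replicate 3 that median was -0.011, and without replicate 2 it was -0.11. DNA replication genes had a median of -0.010 over 24, with 0 lower and 2 higher at an unadjusted p under 0.05 (8.33%), and DESeq2 called 0 in either list. Leaving out Chd8+/+ replicate 3 gave a replication median of -0.038, leaving out Chd8+/+ replicate 2 gave 0.042, and offsets for gene length gave 0.018. Of 15 p53 targets, 4 were lower and 3 higher at an unadjusted p under 0.05 (46.7% of the list), with DESeq2 calling 0. Their median of 0.003 became -0.030 when Chd8+/+ replicate 1 was out and 0.058 when replicate 2 of that genotype was out. Among them Cdkn1a, the cell cycle inhibitor p21, was at 37.2, 37.6, 37.7 and 41.8, 42.6, 42.1 CPM (log2 fold change 0.17, adjusted p of 0.106 in edgeR and 0.0536 in DESeq2). The groups at Cdkn1a were tight and did not overlap.

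Of 35 Wnt pathway genes, 25 were lower, with a median of -0.072 and 6 at an unadjusted p under 0.05 (17.1% of the list, beside 17.8% of all genes). The median was -0.045 without Chd8+/+ replicate 2, and also with offsets for gene length. Ctnnb1, which encodes β-catenin, was at 791, 817, 732 and 672, 711, 710 CPM (log2 fold change -0.16, adjusted p of 0.131 in edgeR and 0.0163 in DESeq2). Genes of radial glia and intermediate progenitors had a median of -0.13 over 16, with 6 lower and 2 higher at an unadjusted p under 0.05 (50% of the list) and 0 called by DESeq2. That median was -0.084 without Chd8+/+ replicate 2. Eomes, the transcription factor of intermediate progenitors, was at 4.37, 4.40, 3.89 and 2.98, 3.58, 3.33 CPM (log2 fold change -0.36), while Hes5, a Notch target, was higher at 13.2, 13, 12.6 and 14.7, 14.7, 15.9 CPM (log2 fold change 0.22).

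Among neuronal identity genes, 11 of 15 deep-layer markers were lower, 5 of them and 1 higher gene at an unadjusted p under 0.05. Their median was -0.044, and it was -0.014 without Chd8+/+ replicate 3 and -0.088 without Chd8+/+ replicate 1. Bcl11b, the transcription factor of subcerebral projection neurons and also of striatal neurons, was at 181, 194, 196 and 140, 171, 160 CPM (log2 fold change -0.28, adjusted p of 0.106 in edgeR and 0.00147 in DESeq2). Foxp2, of corticothalamic and striatal neurons, was at 38.7, 38.4, 36.9 and 22.2, 31.8, 30.7 CPM (log2 fold change -0.43, and -0.28 without Chd8+/- replicate 1). Chd8+/- replicate 1 was the lowest at both genes, as it was in the mean level of the striatal markers.

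Of 21 markers of GABAergic interneurons, 16 were lower, with a median of -0.12, 8 at an unadjusted p under 0.05 and 4 called by DESeq2. Reln, the secreted protein of Cajal-Retzius cells and interneurons that guides layering, was at 349, 351, 357 and 320, 321, 300 CPM. Gad1, the enzyme that makes GABA and is also used by striatal neurons, was at 180, 170, 162 and 129, 156, 150 CPM (log2 fold change -0.24, adjusted p of 0.127 in edgeR and 0.0104 in DESeq2). The summed level of these markers was 1750 to 1780 CPM in Chd8+/+ and 1540 to 1680 CPM in Chd8+/-, and the median was -0.050 without Chd8+/- replicate 1. Reelin pathway and migration genes had a median of -0.038 over 22, and neuronal RNA-binding regulators -0.045 over 27. With offsets for gene length these medians were -0.009 and -0.016. Among 19 immediate early genes, Jun was lower at 39.9, 41.5, 38.6 and 34.0, 34.4, 34.2 CPM (log2 fold change -0.23, edgeR adjusted p = 0.099), with a list median of -0.052 that was -0.12 without Chd8+/+ replicate 1 and -0.018 without Chd8+/+ replicate 2.

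To ask whether the effect of the genotype differed from that before birth, the P5 difference was tested against that at E12.5 over all 12 libraries. edgeR called 0 of 19676 genes for this interaction, with 1961 at an unadjusted p under 0.05 (9.97%), and DESeq2 called 8. Chd8 was lower at both stages, with a log2 fold change of -0.51 at E12.5 and an interaction of -0.12 (unadjusted p = 0.0362, edgeR adjusted p = 0.470). The log2 fold change of Robo1 was 0.09 at E12.5 and -0.27 at P5, that of Dcc -0.04 and -0.53, and that of Folr1 0.22 and -1.41, and the adjusted p of their interactions from edgeR was between 0.339 and 0.372. Median log2 fold changes at E12.5 were -0.15, 0.19 and -0.015 for the alpha, beta and gamma protocadherins and 0.014 for the mitochondrial ribosomal proteins. They were 0.22 for the choroid plexus markers and 0.083 for the striatal markers, at a stage when the tissue is largely made of progenitors.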

How the data were processed

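mRNA was selected from total RNA of neocortex, and the libraries were analysed from the deposited counts of read pairs per gene, which the authors made with TopHat2 2.1.0 and featureCounts 1.5.0 on GRCm38 with Ensembl annotation, after trimming with Trim Galore 0.4.1. Per the file header, strand was not set in the counting although the libraries were stranded with dUTP. The 2 runs of each library were summed. Genes that passed the default expression filter of edgeR 4.0.16 were tested with its quasi-likelihood method (TMM normalization, legacy option off, Benjamini-Hochberg adjustment over all genes tested, threshold 0.05) in R 4.3.3. The standard errors given are the size of the log2 fold change divided by the square root of the F statistic of the edgeR test. DESeq2 1.42.0 was the first alternative. Offsets for gene length were loess fits per library with a span of 0.5. CPM values were normalized with TMM.

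The genes named were Chd8, the 10 higher and 10 lower genes with the smallest p whose genotypes did not overlap, the 5 higher and 5 lower genes with the largest change at an unadjusted p under 0.01 (both with a mean of at least 1 CPM), and in each list up to 3 members with the smallest p and members it is known by. Members and lists were chosen with earlier results of these data known. Lists are described by counts and medians, without a set test. Scripts were tested on simulated data. Some genes are not reported here.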

Additional observations from a re-analysis of the deposited data

Results flagged for a closer look

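DESeq2 called the difference between genotypes as unequal at the 2 stages at 8 genes, of which 7 are given here. edgeR's quasi-likelihood test of the same difference called 0 of 19676 genes, with 1961 at an unadjusted p under 0.05, and its adjusted p was 0.339 to 0.372 at the 7 genes. For Ebf1 the log2 fold changes were -0.75 (P5) and 0.12 (E12.5) (adjusted p = 0.000254 for the difference, from DESeq2). Sema3c was at -0.25 and 0.34 (DESeq2 adjusted p = 0.0027), and Tenm2 at -0.30 and 0.24 (DESeq2 adjusted p = 0.00524). Otx2 was at -0.86 and 0.20 (DESeq2 adjusted p = 0.0072). Pde10a, a phosphodiesterase abundant in striatal neurons, was at -0.50 and 0.10 (DESeq2 adjusted p = 0.015). Dock11, an activator of Cdc42, was at -0.25 and 0.06 (DESeq2 adjusted p = 0.0437). Rfng, a glycosyltransferase that modifies Notch, was the one of these higher at P5, at 0.20 against -0.20 (DESeq2 adjusted p = 0.0265). Ebf1, Pde10a and Otx2 are markers of striatum and choroid plexus, whose lists were lower at P5, and the part of that difference in these results was not tested.

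Sema3c, Rfng, Dock11 and Foxp2 were picked from the genes named because their genotypes did not overlap at either stage and stood in the opposite order. The share of all genes that did so was not counted. At P5 alone the genotypes were separate at 23.2% of all genes tested. The log2 fold change of Foxp2 was -0.43 at P5 (-0.28 without Chd8+/- replicate 1) and 0.10 at E12.5 (edgeR interaction adjusted p = 0.372).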

How the results depend on the processing

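Chd8 was called in every setting tried, with log2 fold changes of -0.64 to -0.53. The count of 1 gene called by edgeR was 4 with all genes that had a count, 3 with run 1 only, 4 with all 12 libraries in 1 model, 126 at a threshold of 0.1 and 995 with the legacy method and all genes that had a count, an alternative chosen after seeing the data. DESeq2 called 651 (also with its prior) and 261 with offsets for gene length. With the replicate number as a block, edgeR called 5 genes (Chd8, Pde10a, Folr1, Ttr and Clic6) and DESeq2 81, the latter chosen after seeing the data. Same-numbered libraries of the genotypes correlated at 0.52, 0.16 and 0.074, and Chd8+/+ replicates 2 and 3 correlated best with another number, so the numbers were not taken to pair the samples. With 1 library left out, the count was 1 to 413 by edgeR and 48, 122 and 563 (Chd8+/+ replicates 1 to 3) and 140, 906 and 314 (Chd8+/-) by DESeq2. The share of lower genes, 55.0%, was 52.5% with upper quartile scaling, 51.4% without scaling, 52.9% with all genes that had a count, 52.7% with run 1, 50.2% with run 2, 66.4% with all 12 libraries, 57.8% with the replicate block and 44.6% with offsets for gene length. By DESeq2 it was 43.3% with these offsets and 62.5% with the replicate block. With 1 library left out it was 49.6% to 56.3% by edgeR and 52.3% to 61.6% by DESeq2 (57.7% and 57.2% without Chd8+/+ replicates 1 and 3, 58.2% without Chd8+/- replicate 3). The interaction count of 0 was 8 by DESeq2 and 0 to 2 with 1 library left out. With offsets for gene length the median over all genes tested was 0.016, beside which the list medians with offsets are to be read. Offsets for gene length turned the medians of the Fat, Dachsous and Celsr genes to 0.018, of netrins, Dcc and Unc5 receptors and of potassium channels to 0.031 each and of the BAF subunits to 0.019. They also turned those of calcium channels and vesicle genes to 0.022 each, of DNA methylation genes to 0.027, of DNA replication genes to 0.018, of postsynaptic density genes to 0.048, of astrocyte genes to 0.009 and of p53 targets to -0.008, and without Chd8+/- replicate 1 the potassium channels were at 0.018 (-0.027 without replicate 2). The causes were not tested. The biological coefficient of variation over the 6 libraries was 7.42%.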

Other observations

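Classes of transcripts had small medians of the log2 fold change at P5, given as counted, without offsets for gene length. It was 0.049 for 688 antisense genes, with 32 higher and 16 lower at an unadjusted p under 0.05, and 0.027 for 608 lincRNA genes, with 34 higher and 15 lower. Processed pseudogenes were at -0.027 over 562 genes, with 10 higher and 26 lower, and 15364 protein-coding genes were at -0.002. Over all genes tested 17.8% reached that p, a larger share than in the antisense, lincRNA or processed pseudogene class. The differences between the classes were not tested. Counting without strand cannot separate an antisense gene from its partner.

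The near-identical alpha-globin genes, chosen after their values were seen, differed in opposite directions. Hba-a2 was at 8.51, 8.18, 8.34 and 16.3, 13.3, 8.70 CPM, and Hba-a1 at 35.2, 34.6, 34.7 and 23.1, 22.2, 33.1 CPM, for log2 fold changes of 0.61 and -0.41. Chd8+/- replicate 3 lay near the wild-type libraries at both. Reads of such copies cannot be assigned with certainty.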
